A study of Homo sapiens with 2 samples.

Results

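RBM47 contacts within annotated 3′UTRs were taken from the clusters whose location label was 3′UTR and nothing else. There were 38634 of them among 233546 deposited clusters, or 16.5% (Wilson 95% interval 16.4 to 16.7). A cluster is a stretch of genome covered by overlapping tags, and a tag is a unique sequenced RNA fragment that was crosslinked to the protein by ultraviolet light and recovered with it. Clusters that carried a second label, such as coding sequence (CDS) with 3′UTR or 3′UTR with intron, were not members. The cells were MDA231-BrM2a, a breast cancer cell line derived from MDA-MB-231 that is metastatic to brain, kept as a non-clonal population. They expressed a Flag-tagged, wild-type RBM47 transgene from a doxycycline-inducible promoter, after 3 days at 1 ng/ml doxycycline, so the contacts described are those of the introduced protein. HITS-CLIP was done in 2 replicates of this group, and no control library was analysed here. The labels do not say that the replicates came from separate cultures, so the spread between them may be technical.

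The 3′UTR is the part of an mRNA that follows the stop codon. It is not translated and holds sites for microRNAs, for AU-rich element binding proteins and for other factors that set the stability, location and translation of the message. RNA-binding proteins that occupy 3′UTRs can lengthen or shorten the life of an mRNA, and long 3′UTRs are typical of regulated genes, while housekeeping genes such as those for ribosomal proteins have short ones. RBM47 carries RNA recognition motifs and is also known as a partner in RNA editing.

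The table held 999047 tags from replicate 1 and 3489697 from replicate 2, of which the 3′UTR clusters took 311604 and 1163431. Each cluster in the table had at least 5 tags in total and at least 1 in each replicate, so these sums are not library depths, and weaker sites are not seen. Shares carry intervals for counting error only. The level of each mRNA was not part of these libraries, so more tags on a gene and more copies of its mRNA cannot be told apart. The label was compared with the order of clusters along the strand. In 3740 genes with both 3′UTR and CDS clusters, 97.9% of 190999 pairs had the 3′UTR cluster downstream, and in 3529 genes, or 94.4%, every 3′UTR cluster lay downstream of every CDS cluster. Only 30 clusters had no gene ID, one of them a cluster of 224 tags on the mitochondrial genome.

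3′UTR clusters held more tags than clusters in CDS alone (22822 clusters) and intron alone (99388 clusters), but fewer than the 2740 clusters that carried both the CDS and the 3′UTR label. The 3′UTR clusters held 32.3% ± 1.52 (SD, n = 2) of a replicate's tags, against 8.30% ± 0.185 for CDS and 23.5% ± 1.75 for introns. A median 3′UTR cluster had 13 tags, with 3 in replicate 1 and 11 in replicate 2, a 10th percentile of 6 and a 90th percentile of 70. The CDS median was 9 tags and the intron median 7. Clusters with both the CDS and the 3′UTR label had a median of 17 tags and a 90th percentile of 149, and the 5222 with both the 3′UTR and the intron label had 11 and 49. A large size was therefore not particular to clusters in 3′UTR alone. Of the 3′UTR clusters, 13771 had 5 to 9 tags and together held 6.30% of the tags in the class, whereas the 103 clusters with at least 1000 tags held 14.4%. There were 2 CDS clusters and 1 intron cluster of that size.

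**Figure D1:**
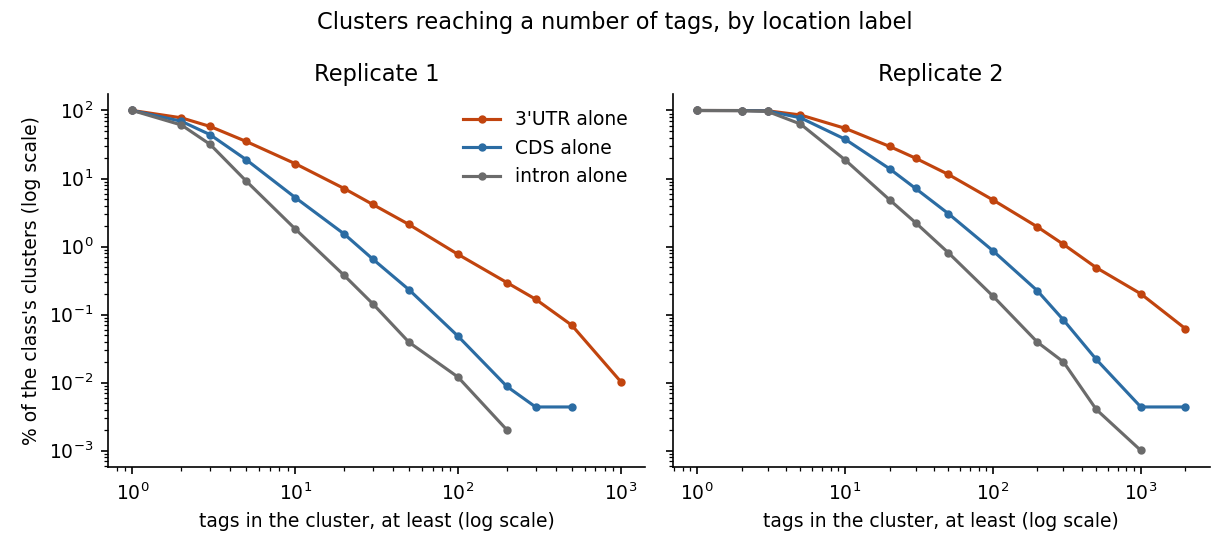
Share of the clusters of a class, in percent on a log scale, that reached a given number of tags on a log scale, in replicate 1 (left) and replicate 2 (right), for 3′UTR alone, CDS alone and intron alone. In both replicates the 3′UTR line lies above the others from 5 to 1000 tags.

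In clusters with at least 10 tags, the mean log2 of tags in 3′UTRs exceeded those in CDS by 0.58 in replicate 1 and 0.53 in replicate 2, a difference of 0.56 ± 0.03 (SD, n = 2). The difference from introns was 0.80 ± 0.04. Both were larger than the spread between replicates, and no test was run over the 2 libraries. Per nt of cluster the differences were 0.32 ± 0.03 and 0.61 ± 0.04. Comparing means within genes, which removes differences in mRNA level between genes, gave 1.12 ± 0.01 over 2281 genes for CDS and 1.14 ± 0.05 over 1324 genes for introns. The 3′UTR mean was the higher in 2019 of the 2281 genes, or 88.5%, and in 1145 of the 1324, or 86.5%. Intron clusters belong to pre-mRNA, whose copy number differs from that of the mRNA, while CDS and 3′UTR clusters belong to the same mature message.

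3′UTR clusters had a median length of 92 nt, with quartiles of 65 and 143 nt, against 84 nt in CDS and 78 nt in introns. The classes differed more at the long end. 702 of the 3′UTR clusters, or 1.82%, were at least 500 nt long, compared with 43 CDS clusters (0.188%) and 98 intron clusters (0.0986%). 104 3′UTR clusters reached 1000 nt, against 4 in CDS and 2 in introns. Clusters with both the CDS and the 3′UTR label were longer still, with a median of 122 nt, 7.19% of at least 500 nt and 48 of 2740 that reached 1000 nt. Length grew with tags within the class, from a median of 65 nt in clusters of 5 to 9 tags to 329 nt from 100 to under 300 tags and 1178 nt at 1000 tags or more. Clusters are built from overlapping tags, so length and tags are linked by construction.

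The longest was also the largest. In ATP13A3 (Entrez gene 79572), a P-type ATPase of the endolysosomal membrane, a 3092 nt cluster on the minus strand of chr3:195604693-195607785 (hg18) held 6614 tags, with 1387 in replicate 1 and 5227 in replicate 2. The next in length were in PHLDA1, AFF4, LMAN1 and TIMP2, at 2327, 2257, 2248 and 1936 nt. By tags, COL8A1 followed with 5651 in 1157 nt, then LMAN1 with 5270, PHLDA1 with 4957 and RTN4 with 4697 in 616 nt. The remaining 5 of the first 10 were in TMBIM6, SSR1, TIMP3, CRIM1 and SLC38A1, with 4327 to 3346 tags. The sequence under these clusters was not read.

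Neighbouring 3′UTR clusters of a gene lay close together. Over 32595 gaps between consecutive clusters of the same gene and strand, the median gap was 30 nt, with quartiles of 6 and 111 nt. In 11.5% of the gaps the clusters touched or overlapped by up to 2 nt, 31.8% were under 10 nt and 59.2% under 50 nt. The median gap was 262 nt between intron clusters and 1411 nt between CDS clusters, with 22.7% and 19.8% of gaps under 50 nt. Gaps are genomic distances, and those between CDS clusters include introns. Only 5.44% of the 3′UTR gaps reached 500 nt. When clusters less than 50 nt apart were joined, the clusters with a gene ID formed 19300 regions, 7587 of them made of several clusters, which together held 69.7% of the clusters. The longest such region ran for 5927 nt in SLC30A7, a zinc transporter, and joined 16 clusters. It was followed by 5886 nt in SLC38A1, 5300 nt in CDK6, 4937 nt in TNPO1 and 4893 nt in SLC7A1.

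**Figure D2:**
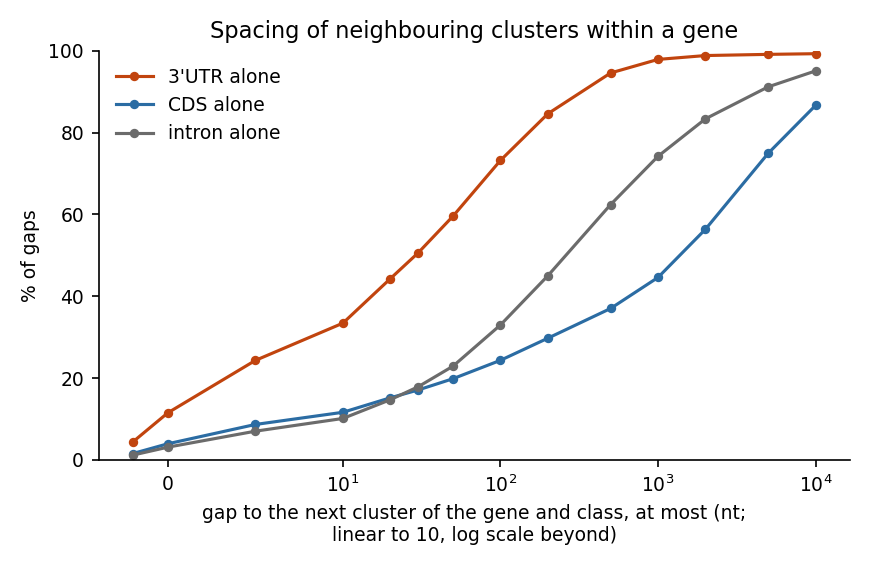
Cumulative share of gaps, in percent, between neighbouring clusters of the same gene, strand and class, against gap size in nt (linear to 10 nt, log scale beyond; negative values are overlaps). The median gap of 30 nt for 3′UTR alone compares with 262 nt for intron alone and 1411 nt for CDS alone.

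In 7506 of the 3′UTR clusters, or 19.4%, the tags of the replicates summed to more than the authors' total, against 11.9% of all other clusters. The excess came to 12776 tags, or 0.866% of the 3′UTR tags, and in 0 clusters was the sum lower. The authors' total is used below for ranking, and the replicate columns wherever replicates are compared.

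The 3′UTR clusters fell in 6009 genes. The median gene had 4 clusters and 65 tags, with quartiles of 2 and 9 clusters and of 17 and 228 tags. A single cluster was found in 1361 genes, or 22.6%, at least 10 in 1338 genes and at least 50 in 8 genes. Tags were concentrated in a minority of the genes. The top 10% of genes held 59.4% of the 3′UTR tags, and 411 genes, or 6.84%, held 50% of them. More than 100 tags were found in 2489 genes and at least 1000 in 322. In 1281 genes, 3′UTR clusters were the only clusters in the table. A gene's 3′UTR clusters held a median of 69.6% of all its tags. Of 3740 genes with CDS clusters too, 3060 had more tags in 3′UTR than in CDS clusters, and of 3014 genes with intron clusters too, 1922 had more than in introns. Clusters that span CDS and 3′UTR were counted in neither.

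SLC7A11 (Entrez gene 23657), the cystine and glutamate exchanger that feeds glutathione synthesis, had the most 3′UTR tags. Its 11 clusters held 2646 tags in replicate 1 and 10110 in replicate 2, a mean of 2.77 ± 0.176 (SD, n = 2) per 1000 of the replicate's tags. They covered 96.6% of a 6284 nt span. SLC38A1 (81539), a neutral amino acid transporter, came next with 2454 and 9486 tags, or 2.59 ± 0.185. Its close relative SLC38A2 had 1015 and 3700 tags, or 1.04 ± 0.0313. Per 1000 tags SLC7A11 stood at 2.65 in replicate 1 and 2.90 in replicate 2, against 2.46 and 2.72 for SLC38A1. Within a library the difference was 0.192 in replicate 1 and 0.179 in replicate 2, a mean of 0.185 ± 0.00945 (SD, n = 2). The order was the same in both replicates. Both genes stood above the third, TM9SF3, at 1.57 ± 0.136, beyond the spread between replicates.

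Several of the first 25 genes code for proteins of the endoplasmic reticulum (ER), the early secretory pathway or the cell surface. LMAN1, a cargo receptor that carries coagulation factors out of the ER, had 1129 tags in replicate 1 and 4147 in replicate 2. MCFD2, its cofactor in that transport, had 1034 and 3914. SSR1 and SSR3, subunits of the translocon-associated protein complex, had 1105 and 4398, and 881 and 3444. The ER calcium-binding protein CALU had 975 and 3599 tags, the ER membrane protein TMBIM6 had 1090 and 4154, and RTN4, a reticulon that shapes ER tubules, had 1057 and 3640. Among membrane receptors, IL6ST, the shared signalling subunit of interleukin 6 type cytokine receptors, had 1243 and 4753 tags, and BMPR2, the type II receptor for bone morphogenetic proteins, had 877 and 3509. CRIM1, a membrane protein that binds bone morphogenetic proteins, had 1142 and 4150. COL8A1, a collagen chain, had 1119 and 4532, and STC1, a secreted glycoprotein hormone, had 1022 and 3660. No enrichment was tested.

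MAP1B, a microtubule-binding protein, had 1219 tags in replicate 1 and 4564 in replicate 2. AFF4, a scaffold of the super elongation complex of transcription, had 1113 and 4396, and CDK6, the cyclin D dependent kinase of the G1 phase, had 960 and 3819. PHLDA1 had 1421 and 5763 tags, NUFIP2 1123 and 4082, the membrane protein TMEM123 1024 and 4099, the ER membrane protein TMEM33 849 and 3278, and EPT1 (current symbol SELENOI), an ethanolaminephosphotransferase of internal membranes, 863 and 3683. Scaled to 1000 tags, 24 of the 25 genes were higher in replicate 2, with RTN4 the exception, and the share of replicate 1 in their tags ranged from 19.0% to 22.5%. Replicate 1 held 22.3% of all tags in the table, 26.1% in 3′UTR clusters of 5 to 9 tags and 20.8% in those of 1000 or more. A higher scaled value in replicate 2 was therefore not particular to these genes. The 3′UTR clusters held more than 50% of all the tags of the gene in 21 of the 25. In COL8A1 they held 33.8%, with 10208 tags in introns, and in RTN4 40.2%. Together the 25 genes held 9.98% of the 3′UTR tags.

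**Figure D3:**
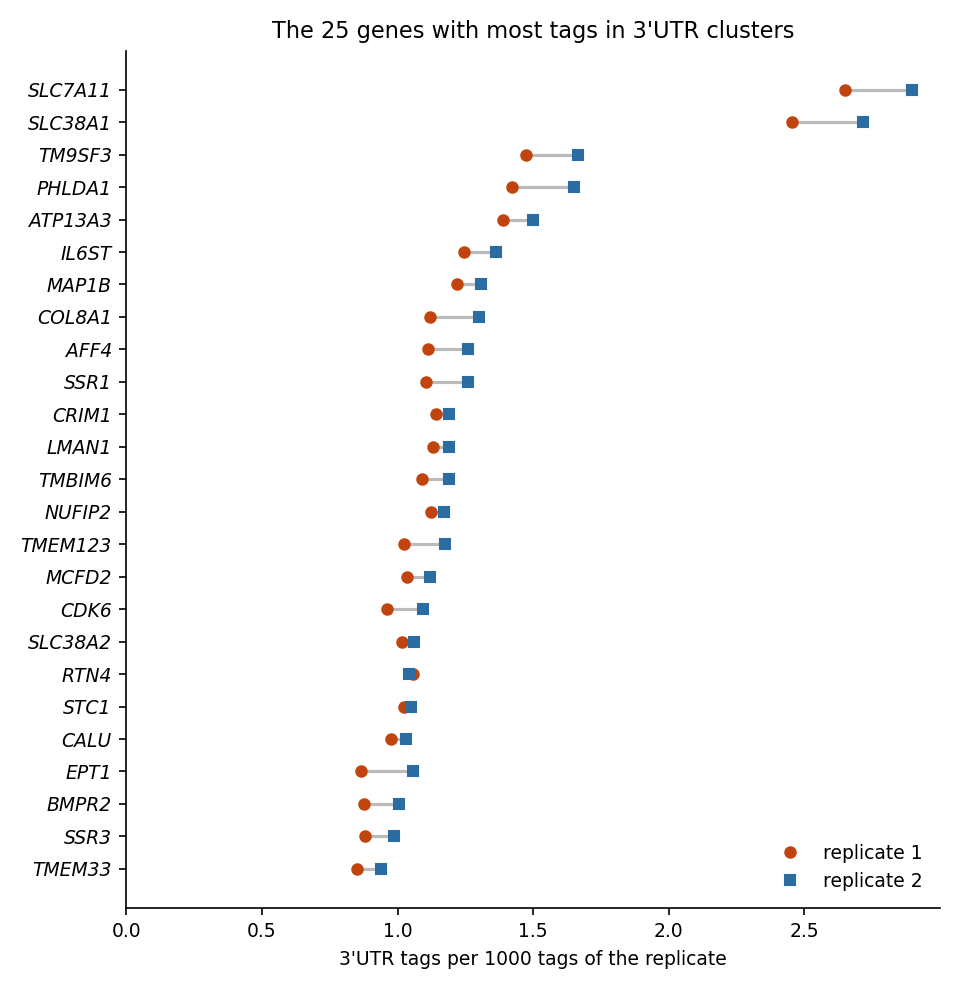
Tags in 3′UTR clusters per 1000 tags of the replicate for the 25 genes with most such tags, in replicate 1 (circles) and replicate 2 (squares), each joined by a line. SLC7A11 and SLC38A1 lie between 2.46 and 2.90, and the others between 0.850 and 1.66.

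Of the 25 genes, 4 had a single cluster, which covers its span by definition. In 17 of the other 21 the clusters covered at least 90% of the span from the first to the last 3′UTR cluster, which need not be the whole 3′UTR, and the lowest value was 53.5% in TMEM33. Over all 4648 genes with at least 2 clusters, the median coverage was 60.7% of a median span of 1389 nt. It was 34.6% in genes of 5 to 29 tags, 62.6% from 100 to under 300 tags and 91.8% at 1000 tags or more, while the median gap went from 197 nt to 43 nt and 9 nt. Over all genes of these tag ranges, those with a single cluster included, the median number of clusters was 1, 8 and 11.5. It stood at 13 in genes of 300 to under 1000 tags, so the number of clusters did not follow the tags at the top of the range. In 183 genes the span exceeded 20 kb.

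Across the 6009 genes the numbers of clusters and of tags went together, with a Spearman's rho of 0.824, as a description of genes that share the same 2 libraries. The 5 genes with most clusters ranked from 87 to 358 by tags. INO80D, a subunit of a chromatin remodelling complex, PTAR1 and TNRC6B, a scaffold of microRNA silencing, had 62 clusters each, and CBX5, a heterochromatin protein, and MKLN1 had 58 and 56. INO80D had 440 tags in replicate 1 and 1733 in replicate 2, and TNRC6B had 220 and 728, spread over 12517 nt of which 54.7% was covered. CDK6, by contrast, had 42 clusters that covered 94.7% of 10142 nt, and the largest held 9.51% of its tags. ATP13A3, LMAN1, RTN4 and COL8A1 had a single 3′UTR cluster each.

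**Figure D4:**
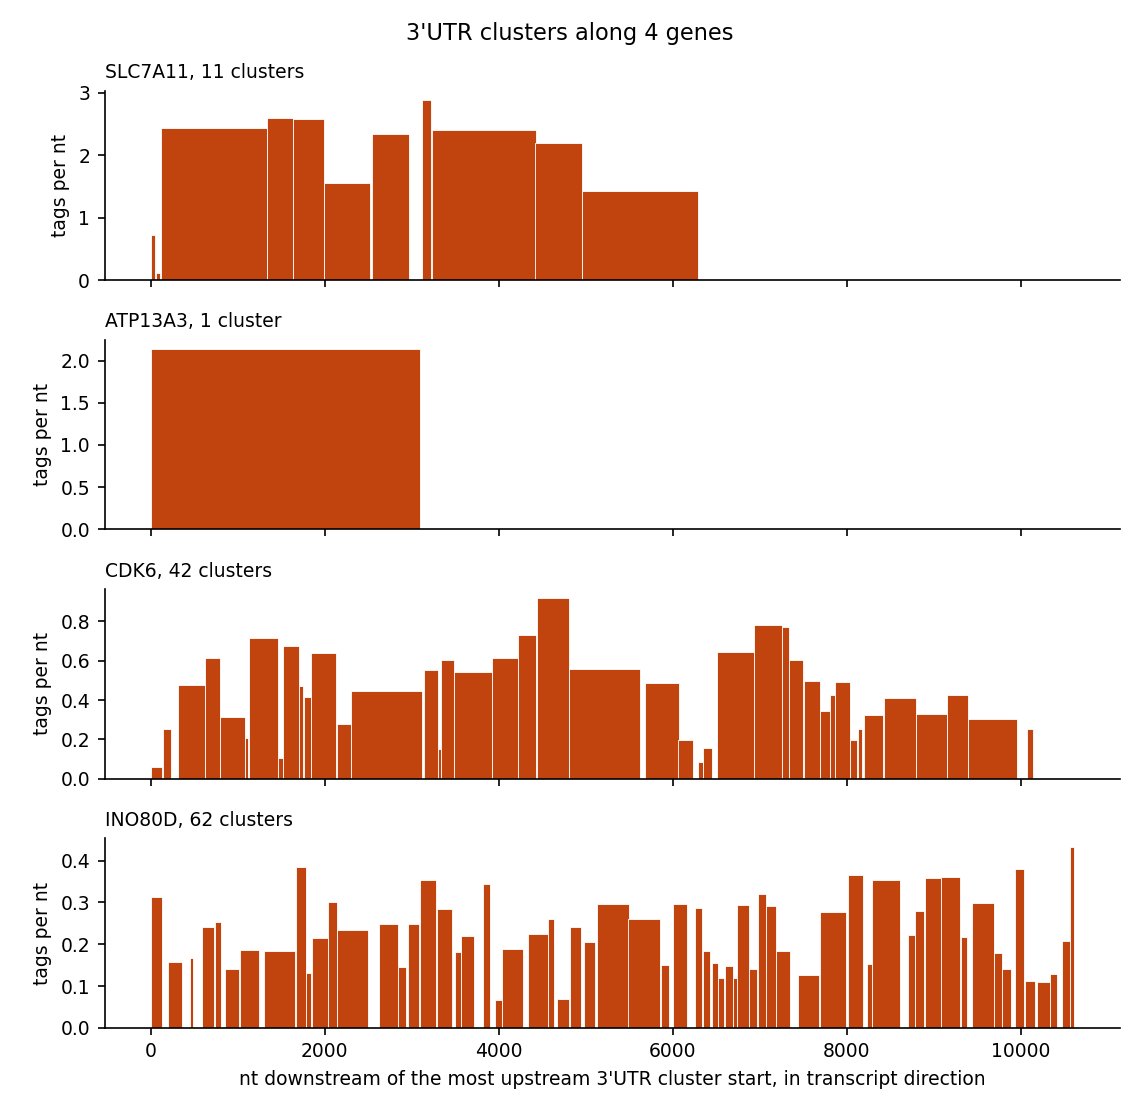
3′UTR clusters of SLC7A11 (11 clusters), ATP13A3 (1), CDK6 (42) and INO80D (62), drawn to a common scale in nt downstream of the most upstream cluster start. Bar height is the authors' total of tags per nt of cluster, on an axis of its own for each gene, so bar area is proportional to tags. SLC7A11 reaches 2.89 tags per nt and INO80D 0.432.

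Along SLC7A11 the 3 longest clusters, in transcript order, held 2956, 2852 and 1881 tags, with shorter ones of 286 to 999 tags between the first pair and 1 of 1185 tags between the second. Per nt the clusters past the first 119 nt stayed within 1417 to 2889 tags per kb. In CDK6 the densest cluster, at 919 tags per kb, lay near the middle of the span, and in INO80D the densest had 432 tags per kb. The highest density among genes with at least 1000 3′UTR tags was in SRGN, the core protein of the proteoglycan serglycin, with 10692 tags per kb in a 279 nt cluster (572 tags in replicate 1 and 2411 in replicate 2). RTN4 had 7625 tags per kb, COL8A1 4884, B2M, the light chain of MHC class I, 4806 and TMBIM6 3241. The table gives 1 count per cluster, so single sites within clusters of this kind were not resolved.

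Tags were close to even along the span from a gene's first to its last 3′UTR cluster, which need not be the whole 3′UTR. Clusters with a second label and those past the gene's end were not counted. In 2671 genes with at least 5 clusters and a span of no more than 20 kb, the span was divided into 5 equal parts in transcript order. The most upstream part held 23.4% ± 0.0125 (SD, n = 2) of the tags of a gene, the middle one 18.2% ± 0.00988 and the last 22.3% ± 0.173, against 20% if even. The outer parts also held 23.9% and 24.4% of the clusters and 23.3% and 22.6% of the covered length. A span begins and ends with a cluster by definition, so its outer parts are never empty. The largest cluster of a gene sat at a mean relative rank of 0.486 over 2810 genes, where 0 is the most upstream and 1 the most downstream cluster and tied clusters share their mean rank. The tags of each replicate gave 0.489 and 0.484. The largest cluster was upstream of the middle rank in 1376 genes, downstream of it in 1221 and at it in 213, and it was the first cluster in 293 genes and the last in 306. With clusters ranked by tags per nt the mean rank was 0.496. Largest clusters were tied in 107 genes by the authors' total and in 402 by the tags of replicate 1. The largest cluster held a median of 25.1% of the 3′UTR tags of a gene, with quartiles of 18.5% and 33.6%, and more than 50% in 146 genes.

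Gene groups were compared through the tags of their members in 3′UTR clusters, set beside the median of 65 tags over all 6009 genes, of which 603, or 10.03%, made up the top 10% with ties. The size given for a list includes genes with no cluster of any label. Over all genes, 7712 had a cluster of any label and 6009 of them had a 3′UTR cluster. Among RNA stability regulators, 31 of 33 had a 3′UTR cluster, with a median of 312 tags, and 11 were in the top 10%. CPEB4, a cytoplasmic polyadenylation factor, had 654 tags in replicate 1 and 2374 in replicate 2, the stress granule protein G3BP2 had 335 and 1458, and RC3H1, a roquin that promotes mRNA decay, had 367 and 1428 in 43 clusters. The SR and hnRNP splicing proteins had 31 of 40 genes with a cluster and a median of 226 tags. Of the 31, 3 were in the top 10%, and SRSF1 led with 245 and 893. For microRNA machinery and deadenylation the median was 130.5 tags in 22 of 27 genes, 1 of them in the top 10%.

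The highest medians were those of signalling groups. In the Hippo pathway and YAP target list, 15 of 22 genes had a 3′UTR cluster, with a median of 408 tags and 7 genes in the top 10%. CTGF, ANKRD1 and CYR61 of this list had 9947, 4810 and 3436 tags in clusters labelled both CDS and 3′UTR, which were not counted. TEAD1, the transcription factor partner of YAP, had 443 tags in replicate 1 and 1998 in replicate 2, FRMD6 had 514 and 1910, and the kinase cofactor MOB1B had 453 and 1772. In FRMD6 the 3′UTR clusters held 11.7% of the tags of the gene, next to 17035 tags in introns. In the TGF-beta list it was 18 of 24 genes, a median of 398 tags and 6 in the top 10%, with the receptor TGFBR1 at 372 and 1475 tags, below BMPR2. In the Wnt list 15 of 32 genes had a 3′UTR cluster, out of 19 with a cluster of any label. The median was 115 tags, with 2 genes in the top 10%. DKK1 was not among the 15, and its 19199 tags in a cluster labelled both CDS and 3′UTR were not counted. The co-receptor LRP6 had 223 and 881 tags, and beta-catenin, CTNNB1, had 98 and 399.

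The ER and early secretory list had 34 of 36 genes with a 3′UTR cluster, a median of 279 tags and 11 in the top 10%, and held 1.94% of all 3′UTR tags. Beyond LMAN1 and CALU, the cargo receptor TMED10 had 800 tags in replicate 1 and 3043 in replicate 2. Solute carriers held 4.46% of the 3′UTR tags in 121 genes, with a median of 108 tags and 19 genes in the top 10%. Of the 65257 tags, 12715 came from SLC7A11, 11897 from SLC38A1 and 4711 from SLC38A2. Integrins and matrix genes had 24 of 87 with a cluster and a median of 137.5 tags, the Rab GTPases 35 of 74 and 147, the cell cycle list 17 of 39 and 157, and actin and tropomyosin genes 26 of 32 and 97. In these lists 31, 36, 20 and 28 genes had a cluster of any label, and 6, 5, 2 and 2 were in the top 10%. In the BCL2 family, 10 of 17 genes had a 3′UTR cluster, and only these 10 had a cluster of any label. Their median was 99.5 tags, and 4 of them were in the top 10%. MCL1, a short-lived survival protein, had 368 and 1361 tags.

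Housekeeping groups lay at the other end. Cytosolic ribosomal proteins had 19 of 87 genes with a 3′UTR cluster and a median of 13 tags, proteasome subunits 19 of 39 and 13, and the respiratory chain 33 of 97 and 12. A cluster of any label was found in 48, 28 and 44 of their genes, and 1, 0 and 0 were in the top 10%. Clusters labelled both CDS and 3′UTR were not counted for these groups either, and their tags there are not given. The median length covered was 111, 99 and 98 nt in these groups, against 442 nt over all genes, 1177 nt in the RNA stability regulators and 1315 nt in the Hippo list. Per kb of cluster the groups were closer together, with medians of 132, 159 and 151 tags per kb in the housekeeping groups, 257 in the RNA stability regulators, 222 in the Hippo list, 283 in the ER list and 142 over all genes. The order by tags was not kept throughout, since actin and tropomyosin genes had the highest median density at 331 tags per kb, while the Wnt list had 143 and the BCL2 family 124. Zinc fingers had 130 of 477 genes with a 3′UTR cluster, and 195 had a cluster of any label. Their medians were 20.5 tags and 111 tags per kb, with 4 genes in the top 10%. The short-lived mRNAs of immediate early genes, 18 of 22 of which had a cluster, had a median of 60 tags with none in the top 10%. Cytokines and chemokines had 11 of 21 and a median of 102, with 1 gene in the top 10%, and IL1A led with 182 and 538. IL8, also in that list, had 16260 tags in 1 cluster labelled both CDS and 3′UTR, which was not counted. Histone genes had a 3′UTR cluster in 9 of 91, with none in the top 10%, and only these 9 had a cluster of any label. The lists overlap with genes named above, and no difference between them was tested.

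**Figure D5:**
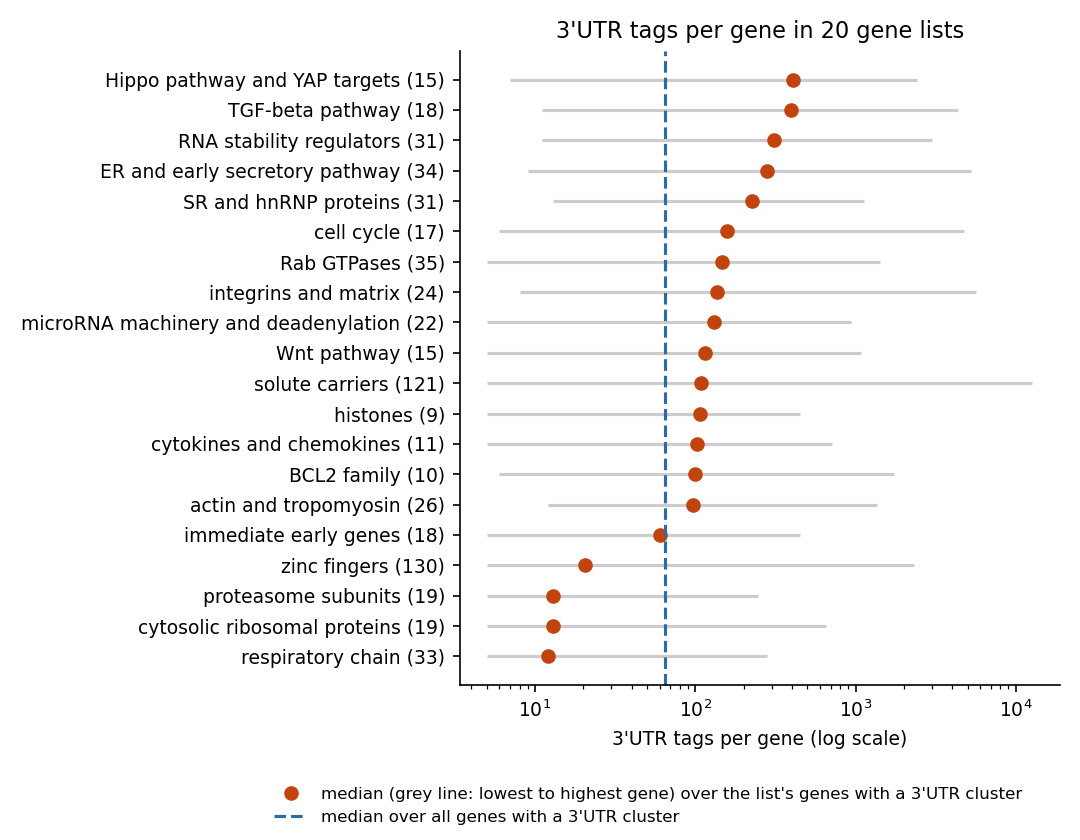
Tags in 3′UTR clusters per gene, on a log scale, for 20 gene lists, as the median (point) and the lowest to highest gene (line), with the number of genes that have a 3′UTR cluster in parentheses. The dashed line marks the median of 65 tags over all 6009 genes. Medians run from 12 in the respiratory chain to 408 in the Hippo pathway and YAP target list.

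Genes followed in the study for mRNA level or splicing had very different numbers of tags in clusters labelled 3′UTR alone. DKK1, a secreted Wnt inhibitor, and IL8, a chemokine now named CXCL8, had 0 clusters labelled 3′UTR alone. Their contacts at the 3′ end lay in single clusters of 1938 and 1608 nt that carried both the CDS and the 3′UTR label, with 4158 and 15041 tags in DKK1 and 3643 and 12619 in IL8. Of 2344 genes with such a spanning cluster, 190, or 8.11%, had no 3′UTR cluster besides. After DKK1 and IL8, those with most tags in spanning clusters were CTGF (9947), ANKRD1 (4810), ADAM9 (4481), MTDH (4016), APP (3453) and CYR61 (3436). LIMCH1 had 352 3′UTR tags in replicate 1 and 1277 in replicate 2, which was 69.6% of all its tags. MBNL1, a splicing regulator, had 193 and 795, next to 2140 tags in introns. SLK, a kinase, had 137 and 550, and the angiogenic factor VEGFA had 136 and 518, or 83.0%. HTATIP2 had 37 and 147 tags, MXI1 38 and 117, TNC 32 and 100, MDM4 28 and 92, HBP1 23 and 84 and SEC31A 22 and 60. At these depths the share of replicate 1 in a gene such as SEC31A could be as high as 37.3% within its interval, so single genes of this size were measured coarsely. MDM4 also had 531 tags in 33 clusters labelled both 3′UTR and intron, of 750 tags in all, and its 3′UTR clusters held 16%.

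Some genes had clusters just past their last 3′UTR cluster. In 948 genes, or 15.8%, at least 1 cluster with the label for the 10 kb past a gene's end began less than 1 kb past the last 3′UTR cluster on the same strand, at a median distance of 188 nt. In 238 genes the distance was under 50 nt, and in 162 genes these clusters held more tags than the 3′UTR clusters. COL8A1 had 6099 tags in 2 such clusters (1247 in replicate 1 and 4852 in replicate 2), against 5651 in its 3′UTR cluster. EGFR, the epidermal growth factor receptor, had 1143 tags after 1992 in its 3′UTR clusters. MAN2A1, a Golgi mannosidase, had 1010 after 907, and CCNI had 754 after 206. The label is set by the gene models the authors used, and whether these tags belong to longer forms of the same mRNA was not tested.

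The replicates agreed better in larger clusters. Across all 3′UTR clusters Spearman's rho was 0.732, rising to 0.829 for the 9502 clusters of 30 tags or more and 0.894 for the 2465 of 100 or more. Across 6009 genes it was 0.972. These are descriptions across clusters or genes of the same 2 libraries. In replicate 1, 16122 of the 3′UTR clusters, or 41.7%, had no more than 2 tags. Replicate 1 held 21.1% of the tags in 3′UTR clusters (Wilson 95% interval 21.1 to 21.2) and 24.1% of those in introns (24.0 to 24.2). At 10 to 29 tags the shares were 21.3% (21.2 to 21.5) in 3′UTRs and 22.1% (22.0 to 22.3) in introns, and at 5 to 9 tags 26.1% (25.8 to 26.4) and 27.2% (27.1 to 27.3), so the intervals were apart among small clusters. Every cluster has at least 1 tag in each replicate, which sets a lower bound on the replicate 1 share that is higher in smaller clusters. How much of the separation comes from this rule was not tested. At 30 to 99 tags the shares were 20.6% (20.5 to 20.8) in 3′UTRs and 20.9% (20.7 to 21.1) in introns, and from 100 to under 300 tags 20.6% (20.4 to 20.7) and 20.4% (20.03 to 20.8). The intervals of these larger clusters overlapped.

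The split of each cluster between the libraries was tested over the whole table with a two-sided exact binomial test against the replicate 1 share of 22.3% and Benjamini-Hochberg adjustment. It called 2 of the 38634 3′UTR clusters, while 0.0111% of all clusters were called. Among clusters of at least 100 tags it called 2 of 2465 in 3′UTRs, while 0.51% of all such clusters were called. At an unadjusted p under 0.05 in the exact test there were 1501 3′UTR clusters, or 3.89%, against 3.04% of all clusters. Larger clusters had a replicate 1 share below the expected value, and 3′UTR clusters were larger, so these percentages do not compare clusters of like size. Both called 3′UTR clusters had a lower share in replicate 1. TIMP3, an inhibitor of matrix metalloproteinases, had 697 and 3013 tags in its cluster, a share of 18.8% (Wilson 95% interval 17.6 to 20.1) with an adjusted p of 0.00297 in the exact test. ARL6IP1 had 482 and 2130 tags in its cluster, a share of 18.5% (17.0 to 19.99) with an adjusted p of 0.0186 in the exact test. The test compares these libraries and not conditions. Neither call held when the median share in clusters of at least 100 tags, 20.8%, was taken as the expected value, with 18 of all clusters then called.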

How the data were processed

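Tags bound by Flag-RBM47 were measured in MDA231-BrM2a cells, in 2 replicates of 1 group. Per the labels and methods, the authors poly(A) tailed the recovered fragments, reverse transcribed them with primers that carried a degenerate barcode, collapsed copies and grouped overlapping unique reads into clusters on the Galaxy platform. The submitters' processing notes name Novoalign and hg18, with no version. Each cluster was deposited with counts of unique tags, by replicate and in total, not scaled to library size. Coordinates are as listed, and whether they start at 0 or 1 is not known. The 38634 clusters whose label is exactly 3′UTR were selected, and all were used unless a minimum of 10 tags is given. The genome given for this work is GRCh37, so no cluster sequence was read and coordinates were not converted. RefSeq paired gene IDs with current symbols for 5994 of 6009 genes, and gene lists were matched by those symbols.

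Length is end minus start. Gaps run from the end of a cluster to the start of the next of the same gene ID, chromosome and strand. Values per replicate were divided by that replicate's tags in the table and multiplied by 1000. With a single group no condition was compared, and no p-value was computed with clusters or genes as replicates. The p-values given are those of the tests of each cluster's split between the libraries. The binomial test, gap and position code were tested on simulated data (Python 3.11.15, scipy 1.17.1, pandas 2.3.3). The named genes are the 25 with most 3′UTR tags, the 5 with most clusters, the 5 densest with at least 1000 tags, the 3 leading genes of each list and those followed in the study, of which some are not reported here. Named clusters are the first 10 by tags, the 5 longest and those past the test's threshold of 0.05. Genes with most tags downstream of the 3′UTR or in spanning clusters were chosen after their values were seen. The members and lists were chosen with earlier results of these data known. Alternatives changed the tag minimum, labels counted, joining of clusters, scaling, pseudocount, test and replicates.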

Additional observations from a re-analysis of the deposited data

How the results depend on the processing

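Of 57 alternatives over 12 results, 16 stayed within their limit, 41 moved the value and 0 reversed a direction. Only the log2 differences from introns and from CDS were scored for sign, so the other results could not be called reversed. The limit was 1.5 times for a count, the SD between replicates where each gives a value, and otherwise a 95% interval of the median. A minimum of 10 tags left 24863 clusters, a tag share of 38.3%, a median of 22 tags and a median length of 121 nt. A minimum of 30 tags left 9502 clusters in 2526 genes, with mean log2 differences of 0.54 from introns and 0.44 from CDS. With all labels that name a 3′UTR counted, the class held 42.8% of the tags and had a median gap of 31 nt. Joining clusters under 50 nt apart gave 19324 regions, a median length of 122 nt and 2 per gene. Summing the replicate columns gave a median of 14 tags. The differences from introns and CDS were 0.61 and 0.32 per nt, 1.14 and 1.12 within genes, 0.72 and 0.50 with a pseudocount of 1, and 1.00 and 0.59 in all deposited clusters, the last chosen after the data were seen. Centres of neighbouring clusters lay a median of 172 nt apart. In genes with at least 10 clusters the largest held 18.5% of the tags at a relative rank of 0.466, and by tags per nt the rank was 0.496. Giving tied largest clusters the rank of the most upstream one moved it from 0.486 to 0.477. The sharing of ranks between ties was adopted after the data were seen, because the other rule favours upstream clusters by construction. Of the 3′UTR clusters, 0 differed between libraries in the beta-binomial test and 0 against the median share, with 1254 and 1515 at an unadjusted p under 0.05. Among clusters of at least 30 tags 5 did, in SERINC1, XPOT, LIN7C, RABGEF1 and SCAF11, named after their values were seen, and neither TIMP3 nor ARL6IP1.

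With each replicate left out in turn, clusters ranged from 13545 to 33214, genes from 3360 to 5410, median tags from 3 to 11, the tag share from 31.2% to 33.3%, the difference from introns from 0.52 to 0.73, from CDS from 0.36 to 0.51, the median gap from 29 to 42 nt (chosen after the data were seen), clusters per gene from 3 to 4, the share of the largest cluster from 25.6% to 26.5% and its rank from 0.484 to 0.489. Replicate 1 alone gave the lower number of clusters and genes, where the same minimum of 5 tags is stricter. No paired analysis was possible because there are no groups to pair, and differences between classes were taken within each library. Depth in replicate 1, with a median of 3 tags per 3′UTR cluster, limits what is known of single clusters, and contacts with fewer than 5 tags are not in the table.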
